A study of Mus musculus with 2 samples.

Results

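The 10 genes described here act where an inflamed microglial cell lives or dies. Casp4 and Gsdmd serve pyroptosis, Casp8, Ripk1, Ripk3 and Mlkl the choice between apoptosis and necroptosis, and Cflar, Mcl1, Bcl2a1b and Bcl2a1d survival. They were chosen by name, and all 10 stand among the 19537 genes of the matrices. Microglia, the resident macrophages of the brain, were sorted as CD11b+CD45int cells from PARK7/DJ-1 knock-out (KO) and PARK7/DJ-1 wild type (WT) littermates, and their RNA was captured by Drop-seq, which pairs single cells with barcoded beads. Both groups, KO LPS and WT LPS, had received lipopolysaccharide (LPS), a bacterial component that provokes systemic inflammation, into the peritoneum 24 h earlier (4 μg per g of body weight, per the study's methods). The comparison asks what the absence of DJ-1, whose gene is mutated in a familial form of Parkinson's disease, changes in the microglial response.

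Per the study's methods, the KO line carries an allele of Park7 named as a gene trap (Gt), was backcrossed to C57BL/6NCrl, and adult mice of 3 to 4 months were used. Each group was 1 library that pooled 2 mice, a female and a male, and no untreated library was analysed here. Genotype and library therefore cannot be told apart, no test between them was made, and each value rests on the counts of a single library. Intervals are exact 95% intervals that cover counting error only and are not corrected for the number of genes.

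A cell was a barcode with at least 500 unique molecular identifiers (UMIs, tags that mark single captured transcripts) and at least 100 genes. The KO LPS library gave 320 cells and the WT LPS library 1427 cells, with no barcode in common. They held 381305 and 1989011 UMIs, with medians of 963.5 and 1065 UMIs per cell, so each KO LPS value rests on fewer counts. Levels are UMIs of a gene per 1000000 UMIs of the cells (CPM), and ratios are KO LPS over WT LPS. Drop-seq counts transcript ends, so levels were not divided by gene length. A floor of 3 UMIs equals 1.51 CPM in WT LPS and 7.87 CPM in KO LPS. Park7 itself had 323 UMIs in WT LPS and a single one, 1 UMI, in KO LPS (162 and 2.62 CPM), in the direction of the labels. All 12 microglial markers were present in both libraries, and at least 2 UMIs of that list were found in 319 of 320 KO LPS cells and in 1424 of 1427 WT LPS cells.

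In pyroptosis, caspase-11 (the product of mouse Casp4) senses cytosolic LPS and cleaves gasdermin D, whose fragment forms pores in the plasma membrane. Below death receptors and Toll-like receptors, RIPK1 and caspase-8 meet in complexes in which c-FLIP (Cflar) tempers caspase-8. Active caspase-8 cleaves RIPK1 and RIPK3, and where it is inhibited RIPK3 phosphorylates MLKL, which breaches the membrane. MCL1 and the BCL2A1 (A1) proteins hold back mitochondrial apoptosis, and many of these genes respond to NF-kappaB or interferon.

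The sequences around the starts of 4 members are shown first, because inflammatory motifs were searched in them and because the Bcl2a1 copies are nearly the same. RefSeq (GRCm38.p6) gave 250 bases before to 50 bases after the start for 9 of the 10 genes. Gsdmd had no entry. Bcl2a1b is chr9:89199023-89199322 on the plus strand, Bcl2a1d chr9:88731801-88732100 on the minus strand, and Cflar chr1:58711241-58711540 and Casp4 chr9:5308599-5308898 on the plus strand. Each runs 5′ to 3′, and capitals mark motif matches on either strand, AP-1 in both Bcl2a1 genes, the interferon element in Cflar and kappaB in Casp4.
Bcl2a1b: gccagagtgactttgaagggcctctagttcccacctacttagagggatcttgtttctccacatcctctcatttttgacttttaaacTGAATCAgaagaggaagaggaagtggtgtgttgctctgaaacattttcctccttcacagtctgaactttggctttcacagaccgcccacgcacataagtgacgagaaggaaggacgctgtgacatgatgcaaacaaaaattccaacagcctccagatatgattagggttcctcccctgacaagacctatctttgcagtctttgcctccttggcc
Bcl2a1d: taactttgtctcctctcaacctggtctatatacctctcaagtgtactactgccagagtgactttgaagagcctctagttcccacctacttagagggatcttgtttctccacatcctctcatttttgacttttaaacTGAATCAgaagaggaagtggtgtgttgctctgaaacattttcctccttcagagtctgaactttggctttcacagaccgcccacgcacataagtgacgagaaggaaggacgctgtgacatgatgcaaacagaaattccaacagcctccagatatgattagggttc
Cflar: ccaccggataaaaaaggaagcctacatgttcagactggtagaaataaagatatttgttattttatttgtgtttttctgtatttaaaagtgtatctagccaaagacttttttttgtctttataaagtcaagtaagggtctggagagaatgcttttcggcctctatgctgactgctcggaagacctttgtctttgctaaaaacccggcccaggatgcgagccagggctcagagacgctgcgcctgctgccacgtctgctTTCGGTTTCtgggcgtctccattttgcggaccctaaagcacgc
Casp4: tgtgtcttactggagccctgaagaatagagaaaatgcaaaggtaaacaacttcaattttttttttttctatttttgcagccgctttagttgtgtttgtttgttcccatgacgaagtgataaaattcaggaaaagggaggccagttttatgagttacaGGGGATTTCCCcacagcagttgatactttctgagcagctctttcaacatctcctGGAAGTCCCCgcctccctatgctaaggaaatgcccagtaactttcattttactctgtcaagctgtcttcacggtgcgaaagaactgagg

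The motifs were the kappaB consensus, a pair of interferon response half-sites (GAAANNGAA), the interferon gamma activated site (TTCNNNGAA) and AP-1 (TGANTCA), each read on both strands. Casp4 held 3 kappaB matches, of which 2 overlap, beginning 93, 92 and 39 bases before the start. A kappaB match stood in 8.46% of 32851 mouse promoters of this length. The interferon match of Cflar began 7 bases after the start and that of Ripk3 14 bases after it, where 8.56% of promoters held one. AP-1 matches began 164 bases before the start of Bcl2a1b and 114 bases before that of Bcl2a1d, against 7.81% of promoters with one. Mcl1, Casp8, Mlkl and the first listed start of Ripk1 held none of these. A second start of Ripk1 held 1 interferon match and 2 matches of TTCNNNGAA (in 8.30% of promoters), and the interferon match overlapped one of them. The promoters of Bcl2a1b and Bcl2a1d were identical at 247 of 250 aligned bases. These are letter matches and not measured binding.

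Of the survival genes, Bcl2a1b, Bcl2a1d and Mcl1 were lower in KO LPS and Cflar higher, each with an interval on 1 side of 1. Of the death genes, Mlkl and Gsdmd were lower and Casp8 higher by the same reading, and the intervals of Casp4, Ripk1 and Ripk3 held 1. Of the 9 members with at least 20 UMIs over both libraries, 4 had a ratio of 0.5 or less in KO LPS, against 17.1% of all 9085 genes with that many UMIs. These were Bcl2a1b, Bcl2a1d, Mcl1 and Mlkl. Mlkl is among them through a KO LPS count of 0, and like Bcl2a1d (1 UMI in KO LPS) it passed the 20 UMI minimum through WT LPS alone. No member was at least 2-fold higher, against 12.9% of all genes. Ripk3, with 18 UMIs in all, did not reach the minimum. The median log2 ratio of the 9 was -0.56 (-0.50 with Mlkl at its bound), beside 0.03 over all genes. These counts describe the 2 libraries only.

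**Figure D1:**
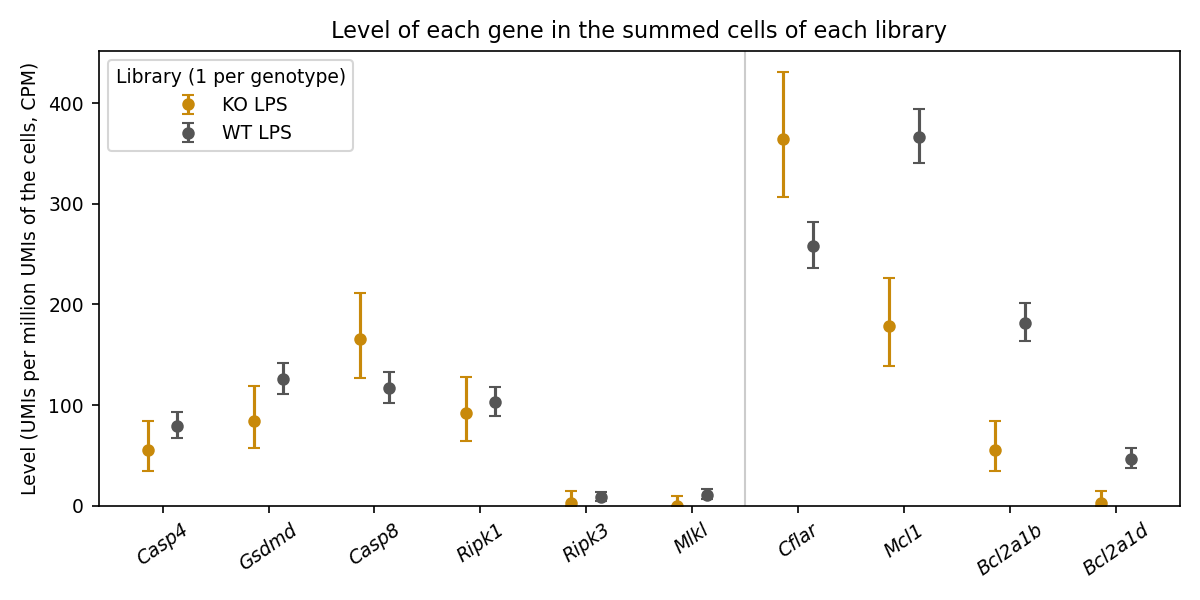
Level of each gene, in UMIs per 1000000 UMIs of the cells (CPM), in KO LPS (orange) and WT LPS (grey), with exact 95% Poisson intervals. Points to the left of the line are death genes and points to the right survival genes. Mcl1, Bcl2a1b and Bcl2a1d lie lower in KO LPS with separate intervals, Cflar lies higher (365 against 258 CPM), and Ripk3 and Mlkl lie near 0.

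Both pyroptosis genes had UMIs in each library. Casp4 (chromosome 9, 5308849 to 5336791) gave 21 UMIs from the KO LPS cells and 158 UMIs from the WT LPS cells. The level of Casp4 was 55.1 CPM (34.1 to 84.2) in KO LPS against 79.4 CPM (67.5 to 92.8) in WT LPS, with a ratio of 0.693 (0.418 to 1.10). Counting error covers that difference in CPM. When libraries were scaled by edgeR's TMM factors or DESeq2 size factors, the interval lay below 1 (upper limits 0.941 and 0.95). In KO LPS, 33.3% of the Casp4 UMIs lay in 3 cells. Gsdmd (chromosome 15, 75862144 to 75867408), the pore-former, had 32 UMIs and 250 UMIs. In KO LPS it stood at 83.9 CPM (57.4 to 118), against 126 CPM (111 to 142) in WT LPS, a ratio of 0.668 (0.447 to 0.967), so it was lower in KO LPS by somewhat more than its counting error, though not in the cells with Xist UMIs (upper limit 1.34).

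Casp8 encodes the protease that favours apoptosis over necroptosis. The gene (chromosome 1, 58795233 to 58847503) gave 63 UMIs in KO LPS against 232 UMIs in WT LPS, or 165 CPM (127 to 211) against 117 CPM (102 to 133). Its ratio of 1.42 (1.05 to 1.88) had an interval just above 1, whose lower limit fell below 1 when libraries were scaled by edgeR's TMM factors (0.905) or DESeq2 size factors (0.913) and in the cells with Xist UMIs, a transcript of female cells (0.902). Its KO LPS share of cells could not be told from the free-RNA value given below. Ripk1, the kinase and scaffold that recruits caspase-8 or RIPK3 (chromosome 13, 34002225 to 34035170), had 35 and 205 UMIs and stood at 91.8 CPM (63.9 to 128) and 103 CPM (89.4 to 118). The Ripk1 levels overlapped within counting error (ratio 0.891, 0.604 to 1.28). Ripk1 overlaps Serpinb6a in the annotation, and the use of strand in counting was not given, so some of its UMIs may belong to that gene.

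The necroptosis pair was scarce. Ripk3 (chromosome 14, 55784995 to 55788857), the kinase that activates MLKL, was counted once (1 UMI) in KO LPS and 17 times in WT LPS, each in a cell of its own. It shares its position with the non-coding Gm32092. Its level was 8.55 CPM (4.98 to 13.7) in WT LPS and 2.62 CPM (0.0664 to 14.6) in KO LPS, and the ratio of 0.307 (0.00734 to 1.96) leaves the direction unresolved. Mlkl (chromosome 8, 111311255 to 111338479), the executor of necroptosis, had 22 UMIs in 18 cells of WT LPS, 11.1 CPM (6.93 to 16.7). In KO LPS it was listed as missing throughout and read as 0 of 320 cells, which by a limit of 3 counts allows a share of up to 0.938% of cells with a UMI and by the exact interval up to 1.15%. Against the floor of 3 UMIs, Mlkl was at least 1.41-fold lower in KO LPS, and the exact interval of its ratio reaches 0.952. In the cells with Xist UMIs (0 against 10 UMIs) that interval reached 1.39. In cells from 500 to below 1000 UMIs, from 1000 to below 2000, and of 2000 or more it reached 9.18, 3.22 and 2.91. No cell of either library held UMIs of both Ripk3 and Mlkl.

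Among the survival genes, Cflar stood apart. Cflar (chromosome 1, 58711311 to 58758884) gave 139 UMIs in KO LPS against 514 UMIs in WT LPS. It stood at 365 CPM (306 to 430) in KO LPS against 258 CPM (237 to 282) in WT LPS, and the ratio of 1.41 (1.16 to 1.70) was close to that of Casp8. The lower limit of the Cflar ratio fell below 1 with TMM factors (0.996) and in the cells with Xist UMIs (0.976). Cflar and Casp8 are neighbours on chromosome 1, with 36348 bases and 1 gene between them. For each Casp8 UMI there were 2.21 Cflar UMIs (1.63 to 3.02) in KO LPS, against 2.22 (1.89 to 2.60) in WT LPS. The balance between the inhibitor and its protease at the transcript level was thus not different beyond counting error.

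Mcl1, a short-lived guardian of mitochondria (chromosome 3, 95656944 to 95663179), was the most abundant of the 10 in WT LPS and less than Cflar in KO LPS. Mcl1 gave 68 UMIs in KO LPS against 729 UMIs in WT LPS. The levels were 178 CPM (138 to 226) and 367 CPM (340 to 394), a ratio of 0.487 (0.374 to 0.624). That point lies at the 2-fold line, and its interval lies wholly below 1. No single cell accounted for it, since the 3 cells with most Mcl1 UMIs held 4.12% of them in WT LPS.

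Both A1 genes were lower in KO LPS. Bcl2a1b (chromosome 9, 89199273 to 89207838) gave 21 UMIs in KO LPS against 362 UMIs in WT LPS. The levels were 55.1 CPM (34.1 to 84.2) and 182 CPM (164 to 202), with a ratio of 0.303 (0.185 to 0.470). Bcl2a1d (chromosome 9, 88723288 to 88731850) gave 1 UMI in KO LPS against 93 UMIs in WT LPS, which is 2.62 CPM (0.0664 to 14.6) against 46.8 CPM (37.7 to 57.3). The Bcl2a1d ratio of 0.0561 (0.00141 to 0.320) has a wide interval because of that single UMI. Both genes were lower in KO LPS well beyond counting error.

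Bcl2a1b and Bcl2a1d belong to a family of mouse copies that 3′ counting can confuse. Over the last 300 bases of their longest coding transcripts (GENCODE vM39), 291 of 293 aligned bases were identical between them, and 298 of 300 between Bcl2a1a and Bcl2a1d. Reads of one copy may thus be counted under another, and Bcl2a1d also overlaps Gm10634. The other copies lay on the same side: Bcl2a1a had 10 and 312 UMIs (26.2 and 157 CPM, ratio 0.167, 0.0794 to 0.312), and Bcl2a1c had 2 and 57 UMIs (5.25 and 28.7 CPM, ratio 0.183, 0.0216 to 0.692). With the 4 copies summed, which does not depend on how the counted reads were split among them, KO LPS had 34 UMIs and WT LPS 824 UMIs, and the log2 ratio was -2.20. Whether reads that match several copies were counted at all was not tested.

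The survival transcripts were made up differently in the libraries. Summed UMIs of the 4 survival genes were 60.1% of all member UMIs (55.0 to 65.1) in KO LPS, against 65.8% (63.9 to 67.6) in WT LPS. Within the survival genes, Cflar gave 60.7% of UMIs (54.0 to 67.1) in KO LPS, against 30.3% (28.1 to 32.5) in WT LPS. Mcl1 gave 29.7% (23.9 to 36.1) and 42.9% (40.6 to 45.3), and Bcl2a1b with Bcl2a1d gave 9.61% (6.12 to 14.2) and 26.8% (24.7 to 29.0). This uses only 2 of the Bcl2a1 copies. With all 4, the copies gave 14.1% (9.97 to 19.2) in KO LPS and 39.9% (37.7 to 42.0) in WT LPS, where Mcl1 then gave 35.3% (33.2 to 37.4). Cflar gave the most in KO LPS under both sums, while in WT LPS it was Mcl1 under the first and the copies under the second.

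Shares of cells with a UMI were read next. Mcl1 UMIs were found in 54 KO LPS cells (16.9%) and in 482 WT LPS cells (33.8%), and Cflar UMIs in 97 cells (30.3%) and 372 cells (26.1%). Bcl2a1b UMIs were found in 18 cells (5.62%) and 286 cells (20.04%). To remove the difference in depth, every cell was thinned to 500 UMIs, which left out no cell. Free RNA also puts UMIs into droplets, and the sort gave no cell type that should lack these genes, so each share was set beside the share that 500 UMIs drawn from barcodes of 100 UMIs or fewer would give. That value takes all 500 UMIs of a cell to be free RNA, so a share near or below it does not show that cells lack the transcript.

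After thinning, Bcl2a1b was found in 2.5% of KO LPS cells (1.09 to 4.87) and 8.13% of WT LPS cells (6.76 to 9.67), where free RNA alone would give 0.502% and 1.73%. Bcl2a1d was found in 0.312% (0.00791 to 1.73) and 2.31% (1.60 to 3.23), with free RNA at 0 and 0.316%. The A1 shares in WT LPS were thus above the free-RNA value. Mcl1 was found in 6.88% of KO LPS cells (4.36 to 10.2) and 16.1% of WT LPS cells (14.2 to 18.1), beside 9.12% and 13.01% from free RNA. In KO LPS the Mcl1 share was no higher than the free-RNA value, so it shows neither expression nor its absence, while in WT LPS it exceeded that value. Cflar was found in 18.1% (14.1 to 22.8) and 11.4% (9.82 to 13.2), beside 13.6% and 11.3%, so its WT LPS share could not be told from the free-RNA value. The Cflar difference of 6.70 percentage points rests on 1 random draw, and without cells holding UMIs of other cell types a further draw gave 1.09. Averaged over all possible draws, Cflar stood at 16.01% and 12.3%, a difference of 3.74 points, and of 4.37 points without those cells.

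The death genes gave smaller shares at this depth. Gsdmd was found in 3.75% of KO LPS cells (1.95 to 6.46) and 6.31% of WT LPS cells (5.10 to 7.70), beside 2.24% and 2.66% from free RNA. The KO LPS interval held the free-RNA value. Casp8 was found in 6.56% (4.11 to 9.86) and 5.47% (4.34 to 6.78), beside 5.39% and 3.58%. Its KO LPS share could likewise not be told from the free-RNA value, and the intervals of the libraries overlapped. Casp4, at 1.88% and 3.92%, and Ripk1, at 3.44% and 3.92%, lay below the free-RNA share in both libraries (2.73% and 5.99% for Casp4, 4.43% and 6.14% for Ripk1). These shares alone show neither expression nor its absence. Ripk3 and Mlkl were found in no KO LPS cell and in 0.420% and 0.350% of WT LPS cells, with no UMI of either in the free RNA. Most cells held no member UMI at this depth, 53.6% in WT LPS and 65.3% in KO LPS, and none held more than 4 members.

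**Figure D2:**
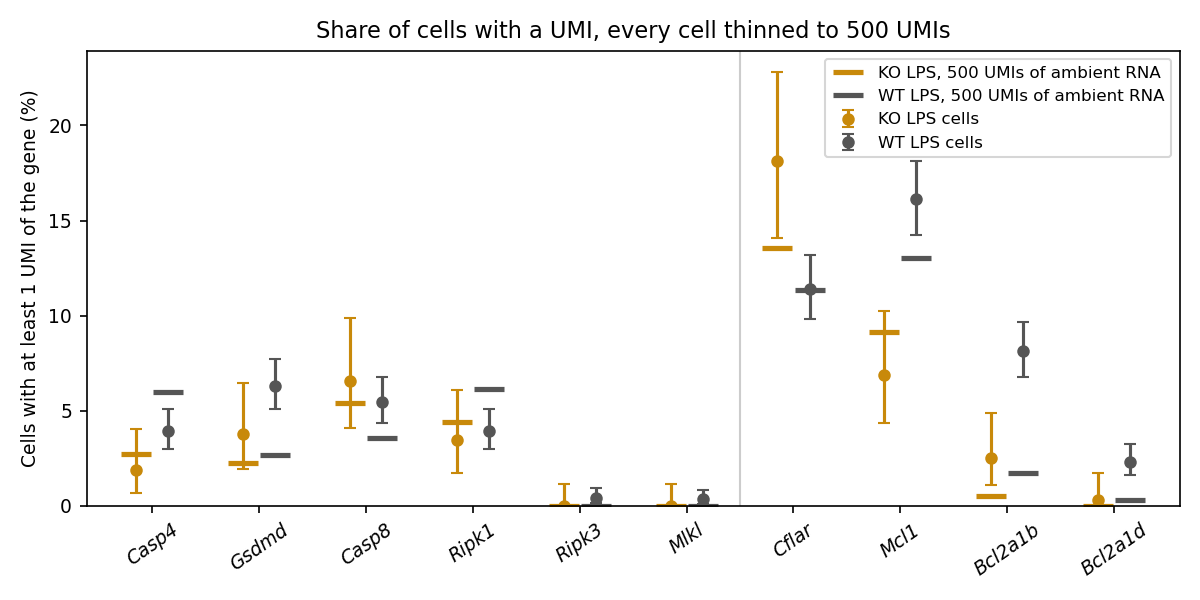
Percent of cells with at least 1 UMI of each gene after every cell was thinned to 500 UMIs, in KO LPS (orange) and WT LPS (grey), with exact 95% binomial intervals. Horizontal dashes give the share expected from 500 UMIs of free RNA. In WT LPS, Bcl2a1b (8.13%), Bcl2a1d (2.31%) and Gsdmd (6.31%) lie above their dashes, and Casp4 and Ripk1 lie below theirs.

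Levels in the cells were also set beside those in all other barcodes. In WT LPS, Bcl2a1b was 5.59-fold higher (3.94 to 8.15) in cells than in all other barcodes, Bcl2a1d 6.28-fold (3.06 to 14.98) and Gsdmd 1.73-fold (1.34 to 2.26). Mcl1 was 1.17-fold higher (1.02 to 1.33) and Cflar 1.09-fold (0.936 to 1.27), so their transcripts were almost as frequent outside the cells. Casp4 had a lower level in cells than in the other barcodes, 0.678-fold (0.533 to 0.863). In the other barcodes the KO LPS over WT LPS ratio of Mcl1 was 0.629 (0.470 to 0.830) that of Cflar 1.19 (0.924 to 1.53) and that of Casp8 1.45 (0.975 to 2.11), so a lower Mcl1 level in KO LPS was also measured outside the called cells.

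Mcl1 had nearly the same ratio at every depth of cell. In cells from 500 to below 1000 UMIs, from 1000 to below 2000, and of 2000 or more (172, 114 and 34 KO LPS cells, 657, 534 and 236 WT LPS cells), the ratios of Mcl1 were 0.496, 0.483 and 0.483, and each interval lay below 1. For Bcl2a1b they were 0.510 (0.223 to 1.03), 0.237 (0.100 to 0.478) and 0.234 (0.0629 to 0.613). Cflar ratios were 1.42, 1.18 and 1.71, and those of Casp8 were 1.37, 1.71 and 1.15. These all lay above 1, with intervals that reached 1 for Cflar in the middle range and for Casp8 in the shallowest and deepest. Casp4 changed side, with 0.276 (0.0726 to 0.748) in the shallowest and 1.65 (0.776 to 3.18) in the deepest cells, and its difference between the libraries therefore depends on which cells are taken.

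**Figure D3:**
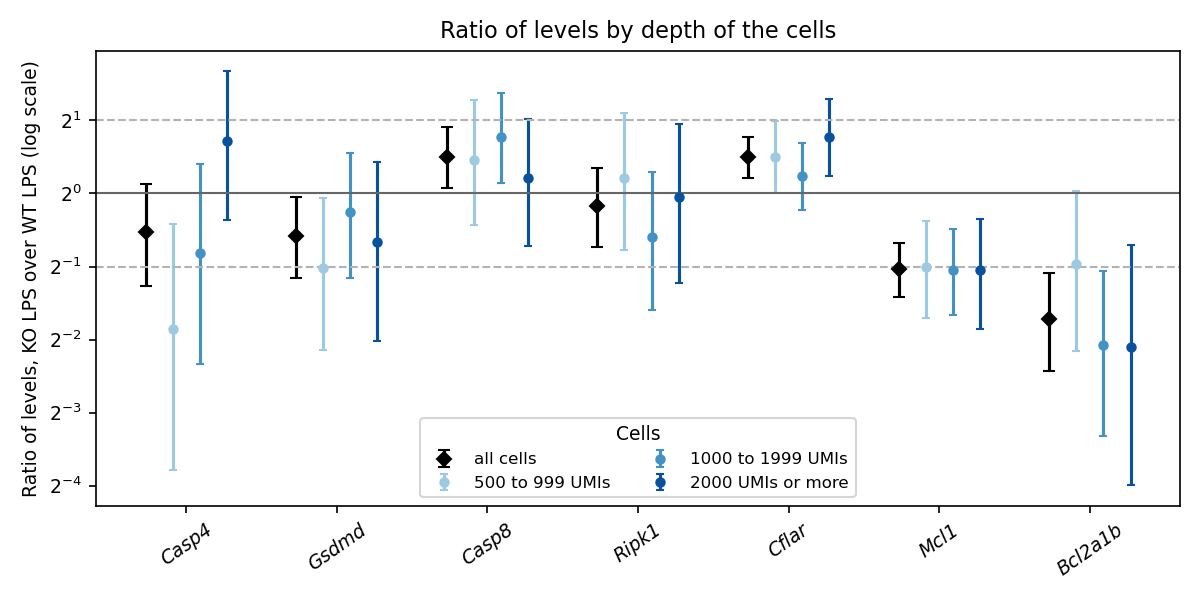
Ratio of levels, KO LPS over WT LPS, on a log scale of base 2, in all cells (black) and in cells of 3 ranges of depth (blue), with exact 95% intervals. The dashed lines mark 2-fold. Mcl1 stays between 0.483 and 0.496, Cflar and Casp8 stay above 1, and Casp4 moves from 0.276 to 1.65.

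Cells of the pooled female and male mice can be partly told apart by Xist and Y-linked UMIs. In KO LPS, 200 cells had Xist and no Y-linked UMI and 12 cells the reverse, while WT LPS had 565 and 195 such cells. A further 108 KO LPS and 667 WT LPS cells had neither or both. Of the cells with either kind alone, 5.66% (2.96 to 9.68) had Y-linked UMIs in KO LPS and 25.7% (22.6 to 28.9) in WT LPS. How many cells came from each mouse cannot be read from these counts, and whether the KO LPS values represent both mice was not tested. Within the Xist cells, the ratio of Bcl2a1b was 0.239 (0.117 to 0.441) and that of Mcl1 0.511 (0.370 to 0.693), and Bcl2a1d had 0 UMIs in KO LPS against 44 in WT LPS. The ratios of Bcl2a1b and Mcl1 in this set lay within the intervals found over all cells. Cflar was at 1.26 (0.976 to 1.62) and Casp8 at 1.31 (0.902 to 1.89), and Gsdmd at 0.865 (0.543 to 1.34), with intervals that reached 1. In the 12 KO LPS cells with Y-linked UMIs there were 0 Mcl1 UMIs, where WT LPS had 107 in 195 cells (ratio at most 0.747), and 0 Bcl2a1b UMIs, where WT LPS had 45 (ratio at most 1.82), too few cells to read the other members.

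Markers of cell state and of other cells moved with these values. The inflammatory transcripts summed to 645 CPM in KO LPS against 11074 CPM in WT LPS (18 of 18 genes with at least 20 UMIs were at least 2-fold lower), and the interferon transcripts to 414 against 2347 CPM (17 of 18). Among all genes 17.1% were at least 2-fold lower. With 0 UMIs in KO LPS, 6 of the inflammatory and 4 of the interferon genes passed the minimum through WT LPS alone. Both lists were chosen with earlier results of these data known. The part of these and of the other markers in the member values was not tested except where a value without such cells is given. Microglial markers summed to 29952 CPM in the KO LPS cells, against 16588 CPM in WT LPS. Of the 8 neutrophil markers in the matrices, all were at 0 in KO LPS, while WT LPS had 133 UMIs (66.9 CPM) with 4 of the 8 at 0. Neutrophils are known for high A1 and Mcl1 expression. The 64 WT LPS cells with a neutrophil marker UMI held 5.25% of the Bcl2a1b, 7.53% of the Bcl2a1d and 6.31% of the Mcl1 UMIs, and without them the log2 ratios were -1.70, -3.55 and -1.02, beside -1.69, -3.58 and -1.03 with all cells. Choroid plexus markers stood at 2119 CPM in KO LPS, against 14.1 CPM in WT LPS. Monocyte markers were at 28.8 and 44.2 CPM, border macrophage markers at 62.9 and 40.2 (in KO LPS Mrc1 alone, the other 5 of 6 being at 0), astrocyte markers at 367 and 170, B lymphocyte markers at 99.7 and 58.3, endothelial markers at 83.9 and 37.7, neuronal markers at 49.8 and 65.4, oligodendrocyte markers at 36.7 and 17.1, and T or NK lymphocyte markers at 0 and 1.01. Genes within such a sum could lie on opposite sides. Mrc1 had 24 UMIs in KO LPS against 21 UMIs in WT LPS and F13a1 0 against 46, Ccr2 of the monocyte markers had 8 against 15 and Fn1 1 against 57, and Flt1 of the endothelial markers had 14 against 3 and Ly6a 1 against 46. Without cells holding 2 or more UMIs of such a list, 274 KO LPS and 1330 WT LPS cells, the log2 ratio was -1.73 for Bcl2a1b, -0.97 for Mcl1, 0.59 for Cflar and 0.70 for Casp8.

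Within WT LPS, the cells were also divided by inflammatory transcripts that include none of the members, after thinning to 500 UMIs. Bcl2a1b stood at 216 CPM in the 855 cells with at least 3 inflammatory UMIs and at 101 CPM in the 119 cells with none, a ratio of 2.15 (0.948 to 5.999). Bcl2a1d had 24 UMIs in the former and 0 in the latter. Mcl1 was at 385 and 336 CPM and Cflar at 262 and 303 CPM, and the sum of the members had a ratio of 1.16 (0.904 to 1.51). By interferon transcripts, 196 cells with at least 3 UMIs and 565 cells with none differed by 1.13 in that sum (0.913 to 1.38). No member differed between such cells beyond counting error. KO LPS had 2 cells with at least 3 UMIs in either division, so it could not be compared.

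The wider pathway lists placed the members among their partners. In death receptor and necroptosis signalling, 5 of 22 genes with at least 20 UMIs were at least 2-fold lower in KO LPS and 2 at least 2-fold higher, with a median log2 ratio of 0.01. Counts in all these lists stand beside the 17.1% lower and 12.9% higher among all genes. Among genes with at least 50 UMIs, the lowest was Zbp1, a nucleic acid sensor that engages RIPK3, with 143 UMIs in WT LPS (71.9 CPM) and 0 in KO LPS. The highest of those was Tab2, an adaptor of the TAK1 kinase, at 409 and 190 CPM (ratio 2.15, 1.77 to 2.60). In the inflammasome and pyroptosis list, 3 of 17 were lower and 1 higher, with a median of -0.42. Il1b, the cytokine that inflammasomes mature, gave 322 UMIs in WT LPS but 1 UMI in KO LPS, whereas Nlrp1b, an inflammasome sensor, stood at 186 and 111 CPM (ratio 1.68, 1.27 to 2.21).

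Apoptosis effectors were spread on both sides, with 3 of 18 genes at least 2-fold lower, 3 at least 2-fold higher and a median of 0.17. Of its BCL2 family triggers of death, Bad had 5 and 78 UMIs (ratio 0.334, 0.106 to 0.814) and Bcl2l11, which encodes BIM, 16 and 40 UMIs (ratio 2.09, 1.09 to 3.81). Of the apoptosis inhibitors, 5 of 15 were lower and 0 higher, with a median of -0.36 (-0.35 with Pim1 and Pim3, which had 0 KO LPS UMIs and passed the minimum through WT LPS alone, at their bounds). Besides Pim1 and Pim3, the 5 include Bcl2a1a and Bcl2a1c, whose reads can be confused with those of the members Bcl2a1b and Bcl2a1d. The remaining gene, Bcl2, had 4 and 45 UMIs and an interval that held 1 (ratio 0.464, 0.121 to 1.27). Pim1, a survival kinase, had 0 and 94 UMIs, and Bcl2a1a was described above. Xiap, an inhibitor of caspases, was on the other side at 302 and 155 CPM (ratio 1.94, 1.55 to 2.41), just short of 2-fold. The membrane repair list, the ESCRT machinery that removes damaged membrane, had none of 11 genes past 2-fold and a median of -0.21. Its outer values were Chmp2a (ratio 0.638, 0.461 to 0.866) and Vps4b (ratio 1.20, 0.955 to 1.5).

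**Figure D4:**
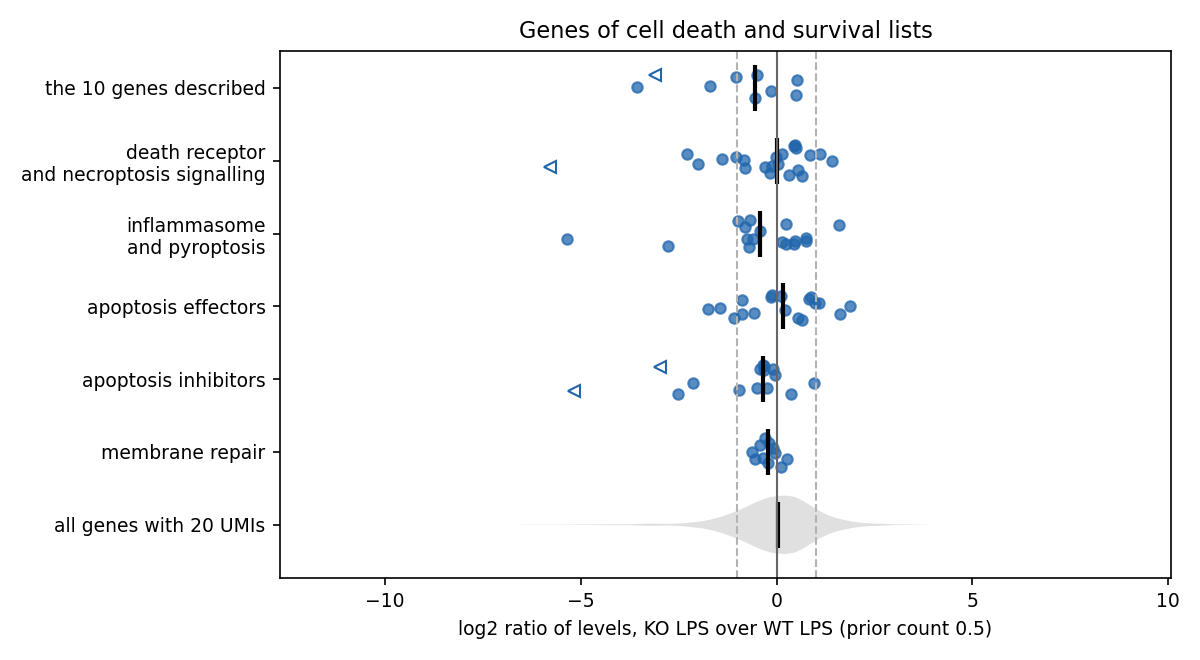
Log2 ratio of levels, KO LPS over WT LPS, of every gene with at least 20 UMIs in the 10 genes described and in 5 pathway lists, with the distribution of all 9085 such genes below. Black bars are medians, dashed lines mark 2-fold, and open triangles are genes with 0 UMIs in KO LPS, whose position depends on the prior count of 0.5. Medians run from -0.56 for the 10 genes to 0.17 for apoptosis effectors, and membrane repair genes all lie within 2-fold.

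Scaling moves these ratios together. With edgeR's TMM factors the median log2 ratio of all genes became -0.19, and 22.5% of genes were at least 2-fold lower and 8.75% at least 2-fold higher. DESeq2 size factors gave -0.18, 21.8% and 8.90%. Casp8 and Cflar kept a ratio above 1 and Mcl1, Bcl2a1b and Bcl2a1d a ratio below 1 under all of these scalings. With TMM factors the ratios of Casp8 and Cflar were 1.22 (0.905 to 1.61) and 1.21 (0.996 to 1.46), and with DESeq2 size factors 1.23 (0.913 to 1.63) and 1.22 (1.01 to 1.48), so only Cflar with DESeq2 factors kept an interval above 1. The interval of Casp4 then lay below 1 (upper limits 0.941 and 0.95). The 2-fold call of Mcl1 depends on the cells taken, with a log2 ratio of -0.97 without cells of other types and of -0.89 over all barcodes.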

How the data were processed

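Drop-seq libraries of KO LPS and WT LPS were analysed from the raw count matrices that the authors deposited, which hold UMIs per gene and barcode without normalisation, 9999 barcodes each. The matrices held 684738 and 3063795 UMIs. In KO LPS 5616 genes were missing throughout, and 3036 in WT LPS. They were read as 0. The submitters' processing notes name bcl2fastq 2.0, STAR, mm9 and mm10 without roles. The annotation and the use of strand are not given in the sources used here. Where a gene had an older symbol in the matrices, RefSeq synonyms were used.

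Cells were barcodes with at least 500 UMIs and 100 genes, whereas the study used DropletUtils. Doublets were left in. Some barcodes ended in an undetermined base (35 cells of KO LPS and 179 of WT LPS). Counts were summed per library and given as CPM, with intervals that were exact Poisson for levels, Clopper-Pearson for shares and conditional binomial for ratios, and which cover counting error only. Log2 ratios used a prior count of 0.5. The MAST test named by the study treats cells as replicates and was therefore not applied to 1 library per genotype. Free RNA was read from barcodes with 100 UMIs or fewer.

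The members and gene lists were chosen with earlier results of these data known. Genes named are the members, Park7, Bcl2a1a, Bcl2a1c, and of each pathway list the lowest and highest ratio with at least 50 UMIs and those past 2-fold with at least 200 UMIs. Bcl2 and Pim3 are named to give the lower apoptosis inhibitors in full. Alternatives varied the cell minimum, doublets, cell types, sex-linked UMIs, thinning, free RNA, the filter and the scaling. The letters of the motifs were changed after first matches had been seen. The calculations were tested on simulated data. Scaling factors came from edgeR 4.0.16 and DESeq2 1.42.0 in R 4.3.3. All else used pandas 2.3.3, scipy 1.17.1, matplotlib 3.10.9 and numpy 2.4.6 in Python 3.11.15.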

Additional observations from a re-analysis of the deposited data

How the results depend on the processing

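With 1 library per genotype, no replicate could be left out. No paired analysis was possible because each genotype has 1 library. Over 23 settings, 206 of 222 values for single genes stayed within the counting interval of the value reported and 16 moved further. Of 172 log2 ratios, 7 changed sign, for Casp4 and Ripk1 (2 settings each), Ripk3, Mlkl and Bcl2a1d. In the cells with Y-linked and no Xist UMI, 12 of them in KO LPS, Ripk3 stood at 1.60, Mlkl at 1.24 and Bcl2a1d at 0.16 (log2), each with 0 UMIs in KO LPS, so that the prior count sets the value, and Casp4 stood at 0.44 and Ripk1 at 0.80. The sign of Casp4 there also comes from the prior count. Its 1 KO LPS UMI against 23 in WT LPS gave a ratio of 0.925 (0.0225 to 5.70) without it. The median log2 ratio of the members in those cells was 0.39, which is the value of Casp8. Without the prior count the ratio of Casp8 was 1.06 (0.125 to 4.10), so that the prior count also raised this median. In those cells 1 member, Cflar, was at least 2-fold higher, and 3 (Gsdmd, Bcl2a1b and Mcl1) were at least 2-fold lower, each with 0 UMIs in KO LPS, so that these calls too depend on few counts. Casp4 was also at 0.00 in cells of at least 1000 UMIs, and Ripk1 at 0.02 in cells thinned to 500 UMIs. In cells with Xist and no Y-linked UMI, 2 members were at least 2-fold lower, because Mlkl fell under 20 UMIs and Mcl1 stood at a ratio of 0.511. Over the 16 settings that leave out the Y-linked cells and the sum of Bcl2a1 copies, log2 ratios ran from -2.10 to -1.53 for Bcl2a1b, past 2-fold in 16 of 16, and from -1.25 to -0.89 for Mcl1, past it in 11 of 16. They ran from 0.29 to 0.70 for Casp8, 0.28 to 0.70 for Cflar, -1.13 to 0.00 for Casp4, -0.78 to -0.19 for Gsdmd and -0.56 to 0.02 for Ripk1. The median over the members was -1.03 with the mean of single-cell CPM (5 members at least 2-fold lower), -0.93 in thinned cells and -0.78 with TMM factors, and -0.35 in cells of at least 1000 UMIs. Chosen after seeing the data, the means over all draws changed no sign, leaving out cells with a neutrophil UMI gave a median of -0.55, and leaving out barcodes with an undetermined base gave -0.41. Depth limits what can be read of genes with few UMIs in KO LPS (Ripk3, Mlkl and Bcl2a1d), where 3 UMIs equal 7.87 CPM.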

Other observations

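UMIs of different members were also counted in the same cells. In WT LPS, Mcl1 and Cflar UMIs occurred together in 157 of 1427 cells, Mcl1 and Bcl2a1b in 126 and Bcl2a1b and Bcl2a1d in 35. In KO LPS, Mcl1 and Cflar occurred together in 17 of 320 cells and Bcl2a1b and Bcl2a1d in 1. Co-occurrence follows the depth of a cell, and no comparison was made.

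Over the 1427 WT LPS cells, the genes whose log-normalised values resembled Bcl2a1b most were Fcer1g, which encodes a signalling chain of Fc receptors (Pearson r of 0.2002), Cst3, an abundant microglial protease inhibitor (0.193), and the ribosomal Rps14 (0.190), among 2045 genes compared. For Mcl1 the highest was Arrb2 (0.129) and for Casp8 Eif3j1 (0.114). All cells share 1 library, and these values are weak in sparse counts and given as a description.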
